A study of Mus musculus with 11 samples.

Results

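The RNA of 10 genes that write or read methylation of histone H3 lysine 9 (H3K9), or that recruit the enzymes writing it, was followed over 4 genotypes of whole mouse testis at postnatal day 5 (P5). The genes were taken by name from the count tables: Ehmt1, Ehmt2 and Wiz of the GLP/G9a complex, Setdb1 and its recruiting cofactor Trim28, the SUV39H enzymes Suv39h1 and Suv39h2, and the heterochromatin protein 1 (HP1) genes Cbx1, Cbx3 and Cbx5. All 10 were found among 33188 genes, and all 10 passed the filter on low counts in every comparison. The study asked whether the transcription factor NRF1 drives retrotransposon transcription when DNA methylation is lost, and sequenced 11 poly-A libraries: 2 wild-type (WT), 3 Dnmt3CKO/KO (Dnmt3C KO), 3 labelled Nrf1KO/KO (Nrf1 cKO) and 3 labelled Dnmt3CKO/KO Nrf1KO/KO (dKO). All strains were bred onto C57Bl6/J. The Nrf1 mutants carry a floxed and a KO allele of Nrf1 together with Ddx4-Cre (Vasa-Cre), which is active in germ cells, so that somatic cells keep the floxed allele intact. By genotype, the Dnmt3C mutants carry a KO allele in all cells and not a conditional one. The labels name germ cells in the titles but give whole dissected testes, with spermatogonia and somatic cells, as the material. In such bulk RNA, fewer cells of a type and less RNA per cell cannot be told apart.

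H3K9 methylation is a repressive mark. G9a (Ehmt2) and GLP (Ehmt1) work as a heterodimer that places mono- and dimethylation, mostly in euchromatin, and WIZ is a zinc finger protein that stabilises the pair on chromatin. SETDB1 places trimethylation at retrotransposons, to which KRAB zinc finger proteins bring it through TRIM28 (KAP1). SUV39H1 and SUV39H2 trimethylate H3K9 at pericentromeric repeats, and the HP1 proteins bind the methylated tail through their chromodomain. In male germ cells these enzymes act beside DNA methylation in the silencing of retrotransposons, and Suv39h2 is the SUV39H gene best known for its expression in testis.

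NRF1 binds a GC-rich palindrome, and the promoters of the 10 genes were therefore read for it. A strict form, the half-site GCGCA directly followed by TGCGC, and a relaxed form, GCGCA and GCGC with 1 free base between, were searched on both strands in the 250 bases before each annotated start site. The strict form is contained in the relaxed one. RefSeq promoters (build GRCm38.p6) were found for all 10 genes, 17 in all. None held the strict form, which 0.782% of 32851 promoters hold. The relaxed form was found once each before Suv39h2, Ehmt1, Suv39h1 and Cbx5, that is in 4 of 10 genes. It was found in 4.233% of 27025 genes with a promoter in the RefSeq set and in 8.07% of the 12363 protein-coding genes tested here. These 4 promoters are printed, 5′ to 3′ on the strand of the gene, because they hold the letters most like those NRF1 binds. Capitals mark the match.

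Suv39h2, chr2:3474987-3475236, minus strand: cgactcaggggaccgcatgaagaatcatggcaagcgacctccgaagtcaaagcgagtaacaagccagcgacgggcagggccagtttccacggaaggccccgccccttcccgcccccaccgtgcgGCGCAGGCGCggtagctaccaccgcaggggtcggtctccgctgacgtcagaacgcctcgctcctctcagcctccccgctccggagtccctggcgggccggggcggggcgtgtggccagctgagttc

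Ehmt1, chr2:24919610-24919859, minus strand: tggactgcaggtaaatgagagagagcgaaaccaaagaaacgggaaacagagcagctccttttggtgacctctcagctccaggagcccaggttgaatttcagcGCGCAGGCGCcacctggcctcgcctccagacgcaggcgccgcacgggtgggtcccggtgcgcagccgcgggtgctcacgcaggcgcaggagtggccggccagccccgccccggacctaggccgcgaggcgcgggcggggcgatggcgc

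Suv39h1, chrX:8074761-8075010, minus strand: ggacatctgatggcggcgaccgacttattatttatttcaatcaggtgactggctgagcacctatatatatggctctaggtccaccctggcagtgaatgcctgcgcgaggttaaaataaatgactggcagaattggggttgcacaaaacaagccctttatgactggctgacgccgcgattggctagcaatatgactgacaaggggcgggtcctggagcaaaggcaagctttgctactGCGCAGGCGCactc

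Cbx5, chr15:103239853-103240102, minus strand: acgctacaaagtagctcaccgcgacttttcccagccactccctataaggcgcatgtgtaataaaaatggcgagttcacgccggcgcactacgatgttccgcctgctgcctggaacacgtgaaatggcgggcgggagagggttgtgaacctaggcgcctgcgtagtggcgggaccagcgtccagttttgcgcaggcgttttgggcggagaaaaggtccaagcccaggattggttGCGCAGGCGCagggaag

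The 4 matches had the same letters, GCGCAGGCGC, and began 126, 148, 14 and 17 bases before the start site of Suv39h2, Ehmt1, Suv39h1 and Cbx5. The first 2 of these windows were GC-rich (69.6% and 69.2%), whereas those of Cbx5 and Suv39h1 held 59.2% and 51.6% GC. A match of letters is a description and does not show binding, and no match says only that these letters are not in the window. With Nrf1 deleted in both Dnmt3C backgrounds, the log2 fold changes of the 4 genes with a match were -0.26, 0.08, -0.01 and 0.01, in the same order, and those of the other 6 lay between -0.11 (Cbx3) and 0.17 (Wiz).

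The libraries held between 26063590 and 39365841 counts over genes and TE subfamilies (median 33862160), and the 10 genes had between 331 counts (Suv39h2 in Nrf1 cKO replicate 3) and 14494 counts (Trim28 in Dnmt3C KO replicate 2) per library. Levels are CPM, that is counts scaled to library size with edgeR's TMM factors. Neither targeted gene was called in any comparison of whole testes. Dnmt3c was at 4.16 and 4.87 CPM in WT and between 3.02 and 4.51 CPM in Dnmt3C KO (log2 fold change -0.25, edgeR adjusted p = 0.973), and Nrf1 was at 57.0 and 58.0 CPM in WT and between 52.2 and 57.9 CPM in Nrf1 cKO (log2 fold change -0.06, adjusted p = 0.995). Nrf1 was at 44.96, 55.56 and 50.29 CPM in Dnmt3C KO, below both WT libraries (log2 fold change -0.19, adjusted p = 0.953) and below the dKO libraries at 56.85 to 60.84 CPM (log2 fold change of dKO over Dnmt3C KO 0.24, adjusted p = 0.675). Counts over a whole gene do not show whether an exon is missing, so these values neither bear out nor contradict the labels. Germ cell markers were present in every group, with 1 of 20 (Rhox13) at 0 in any library, and so were somatic ones. The summed level of 20 germ cell markers was 456 and 595 CPM in WT, between 469.5 and 770.4 CPM in Dnmt3C KO, between 224 and 357 CPM in Nrf1 cKO and between 257 and 482 CPM in dKO. That of 10 Sertoli cell markers was between 3192 and 6641 CPM over all libraries.

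No change of the 10 genes was called between the 4 genotypes. None passed an adjusted p under 0.01 in any of 10 comparisons (edgeR's quasi-likelihood test, Benjamini-Hochberg over all features tested), nor by DESeq2, and 1 of 10 (Suv39h2) had an unadjusted p under 0.05 in 2 of the comparisons with either tool: Dnmt3C KO against Nrf1 cKO, and Nrf1 deletion in both Dnmt3C backgrounds. Leaving out WT replicate 1 left 1 WT library and moved several log2 fold changes. Ehmt2, Trim28 and Wiz went to 0.53, 0.53 and 0.41 in Dnmt3C KO against WT, and to 0.50, 0.57 and 0.51 in Nrf1 cKO against WT. Ehmt2 went to -0.55 in the interaction and Setdb1 to 0.24 for Nrf1 deletion. Leaving out Nrf1 cKO replicate 1 brought Cbx3 to an unadjusted p under 0.05 by edgeR beside Suv39h2 in Dnmt3C KO against Nrf1 cKO (11.3% of all features). Suv39h2 also reached it over the 4 genotypes without that library (6.74%) and in dKO against Dnmt3C KO without dKO replicate 2 (5.13%). None of these passed adjustment. Few features of any kind were called by edgeR: 0% in each comparison of 2 genotypes, in the interaction and over the 4 genotypes together, and 0.00443% (1 feature) for either of the 2 pooled effects, Nrf1 deletion in both Dnmt3C backgrounds and Dnmt3C loss in both Nrf1 backgrounds. Of the features DESeq2 fitted, it called 0.0751%, 0.079% and 0.012% in Dnmt3C KO, Nrf1 cKO and dKO against WT, 0.0241% in dKO against Nrf1 cKO, 0.0567% in dKO against Dnmt3C KO and 0.634% in Dnmt3C KO against Nrf1 cKO. It called 0.114% for Nrf1 deletion, 0.073% for Dnmt3C loss, 0% for the interaction and 0.376% over the 4 genotypes. In Nrf1 cKO against WT it called 26 features, 23 lower and 3 higher. The paper reports far more protein-coding genes as changed between these genotypes, with more of them lower than higher. The reason for this difference was not tested, and 2 WT libraries were available here. An unadjusted p under 0.05 was reached by 5.41%, 5.75% and 1.74% of all features in the 3 mutants against WT in that order, by 2.81% in dKO against Nrf1 cKO, 7.18% in dKO against Dnmt3C KO and 10.6% in Dnmt3C KO against Nrf1 cKO. For Nrf1 deletion it was 7.87%, for Dnmt3C loss 2.9%, for the interaction 5.55% and over the 4 genotypes 6.06%. The absence of calls among the 10 genes is thus no different from the background, and the intervals say more: the fitted 95% intervals of all 10 genes lay within 1 on the log2 scale, that is within a 2-fold change, in each of the 9 comparisons that give a fold change. These intervals bound the level in whole testis. They do not bound the change within germ cells, the cells in which Nrf1 was deleted.

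**Figure D1:**
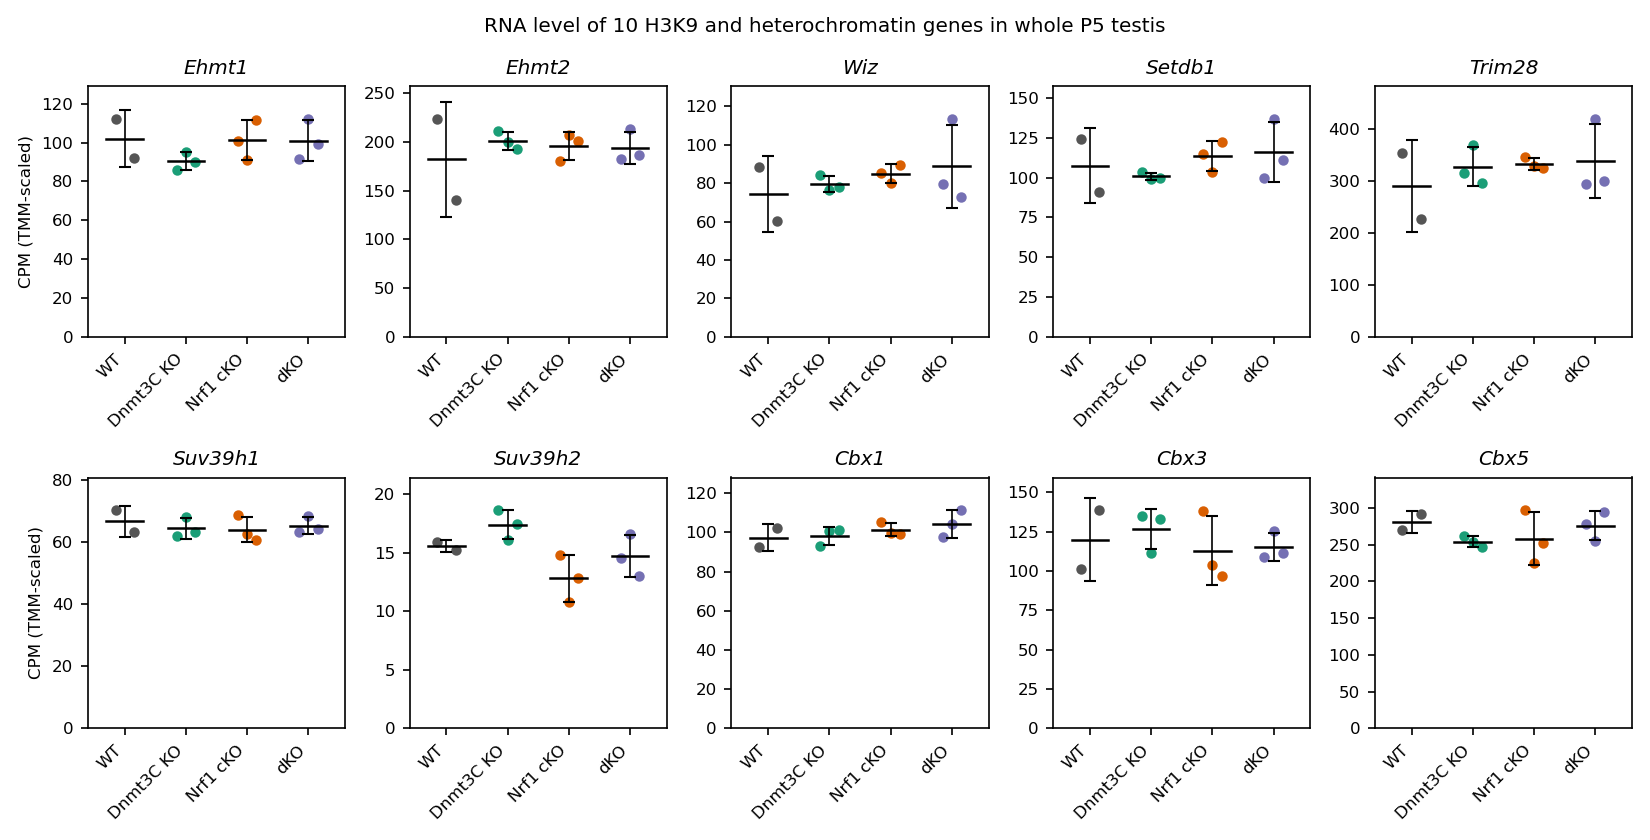
RNA level of the 10 genes in each of the 11 libraries, in CPM with TMM scaling; points are libraries, horizontal bars are group means and error bars are SD (n = 2 for WT, n = 3 for each mutant). The groups overlap for most genes, and the 2 WT libraries lie far apart for Ehmt2, Trim28, Wiz and Setdb1.

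None of the 3 GLP/G9a genes passed the test in any comparison. Ehmt1 (ENSMUSG00000036893.17, chromosome 2 of GRCm38, 24789928 to 24919614, minus strand) was at 112 and 91.8 CPM in WT. It was at 85.9, 95.3 and 90.0 CPM in Dnmt3C KO, at 101, 91.25 and 112 CPM in Nrf1 cKO, and at 91.5, 112 and 99.25 CPM in dKO. Each group overlapped every other, and the 2 lowest of the 11 libraries were Dnmt3C KO. The fitted log2 fold change was -0.17 in Dnmt3C KO against WT (95% interval -0.50 to 0.15, adjusted p = 0.958) and 0.16 in dKO against Dnmt3C KO (-0.09 to 0.41, adjusted p = 0.726). The first was -0.01 without WT replicate 1 and -0.30 without WT replicate 2, and the second was 0.06 without dKO replicate 2.

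Ehmt2 (ENSMUSG00000013787.15, chromosome 17, 34898469 to 34914052, plus strand) had the highest and the lowest library of all 11 in WT, at 224 and 140.4 CPM. The mutants lay between these, at 211, 199.9 and 193 CPM in Dnmt3C KO, 180.4, 207.5 and 201 CPM in Nrf1 cKO, and 183, 213 and 187 CPM in dKO. No comparison of mutants with WT could therefore separate them, and the 9 fitted log2 fold changes of Ehmt2 lay between -0.16 (the interaction) and 0.14 (Dnmt3C KO against WT). The comparisons with WT moved with the WT library left out: Dnmt3C KO, Nrf1 cKO and dKO against WT gave 0.53, 0.50 and 0.46 without WT replicate 1 and -0.14, -0.20 and -0.20 without WT replicate 2, and the interaction gave -0.55 and 0.12. Among the mutants alone the intervals were narrow: dKO against Dnmt3C KO gave -0.05 (-0.30 to 0.19). Wiz (ENSMUSG00000024050.18, chromosome 17, 32354055 to 32389439, minus strand) behaved like Ehmt2 in WT, with 88.5 and 60.2 CPM. It had its highest value in dKO replicate 2, at 113.5 CPM, against 79.55 and 73.0 CPM in the other dKO libraries, and all groups overlapped. The log2 fold change of dKO over WT, 0.25 (-0.28 to 0.79), was 0.04 without that library, 0.55 without WT replicate 1 and 0.005 without WT replicate 2.

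Setdb1 (ENSMUSG00000015697.14, chromosome 3, 95323525 to 95357202, minus strand) was at 124 and 90.75 CPM in WT, 103, 99.1 and 99.8 CPM in Dnmt3C KO, 115, 103 and 122 CPM in Nrf1 cKO, and 99.9, 137 and 111 CPM in dKO. Nrf1 cKO lay above Dnmt3C KO without overlap, by a small margin, and the log2 fold change of Dnmt3C KO over Nrf1 cKO was -0.17 (-0.40 to 0.07, adjusted p = 0.603). Trim28 (ENSMUSG00000005566.14, chromosome 7, 12999114 to 13031035, plus strand), the scaffold between KRAB zinc finger proteins and SETDB1, was at 353 and 228 CPM in WT. It was at 316, 368.5 and 296 CPM in Dnmt3C KO, at 346, 328 and 325 CPM in Nrf1 cKO, and at 294, 419.5 and 300.0 CPM in dKO. The 3 Nrf1 cKO libraries lay close together, whereas WT replicate 2 was the lowest and dKO replicate 2 the highest of all 11. The log2 fold changes of Trim28 against WT were 0.17 (-0.28 to 0.62) in Dnmt3C KO, 0.18 (-0.33 to 0.70) in Nrf1 cKO and 0.22 (-0.34 to 0.77) in dKO, comparisons that share the same 2 WT libraries. Without WT replicate 1 they were 0.53, 0.57 and 0.56, and without WT replicate 2 they were -0.10, -0.09 and -0.06.

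Suv39h1 (ENSMUSG00000039231.18, chromosome X, 8061171 to 8074760, minus strand) was the most even of the 10 genes. It ranged from 60.7 to 70.25 CPM over the 11 libraries, with a coefficient of variation of 5.02%. Its pooled log2 fold change was -0.01 for Nrf1 deletion (-0.18 to 0.15) and -0.01 for Dnmt3C loss (-0.17 to 0.16), the narrowest intervals of the set together with those of Cbx1. As folds, these intervals ran from 0.881 to 1.11 and from 0.886 to 1.12.

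Suv39h2 (ENSMUSG00000026646.16, chromosome 2, 3455815 to 3475031, minus strand) stood apart from its paralog. It was at 15.96 and 15.2 CPM in WT, 18.6, 16.1 and 17.4 CPM in Dnmt3C KO, 14.8, 10.8 and 12.8 CPM in Nrf1 cKO, and 14.6, 16.6 and 12.99 CPM in dKO. All Nrf1 cKO libraries were below both WT libraries and below all Dnmt3C KO libraries, and the dKO libraries overlapped each of the other groups. Dnmt3C KO exceeded Nrf1 cKO by 0.45 on the log2 scale (standard error 0.16, 95% interval 0.08 to 0.81, unadjusted p = 0.022 by edgeR), which did not pass adjustment (adjusted p = 0.377). In that comparison 10.6% of all features had an unadjusted p under 0.05, so that 1 of 10 genes is close to the background. Over both Dnmt3C backgrounds, Suv39h2 averaged 13.8 CPM in the 6 libraries with Nrf1 deleted and 16.7 CPM in the 5 without. The log2 fold change was -0.26 (standard error 0.12, interval -0.51 to -0.01, unadjusted p = 0.041 by edgeR, adjusted p = 0.607), where 7.87% of all features had an unadjusted p under 0.05. The direction of Suv39h2 held in each refit that left out a library, where it was between -0.31 and -0.21, but its adjusted p did not fall below 0.502 in them. In those refits the unadjusted p of Suv39h2 by edgeR stayed under 0.05 only without Dnmt3C KO replicate 2, Nrf1 cKO replicate 1 or dKO replicate 2. The interaction was 0.04 (-0.47 to 0.55), so the data do not show that Nrf1 deletion moved Suv39h2 differently with and without Dnmt3C.

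**Figure D2:**
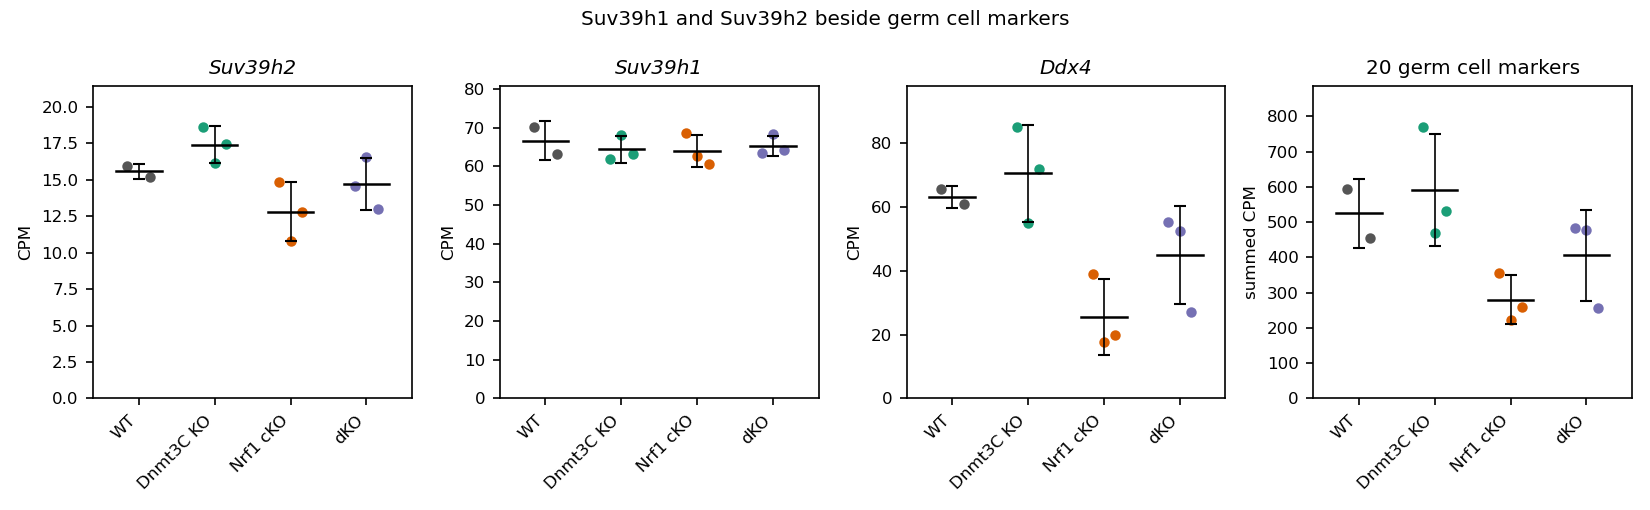
CPM of Suv39h2, Suv39h1 and Ddx4 and summed CPM of 20 germ cell markers in each library; points are libraries, bars are group means and error bars are SD (n = 2 for WT, n = 3 for each mutant). The means of Suv39h2, Ddx4 and the summed germ cell markers are lowest in Nrf1 cKO, while Suv39h1 lies between 60.7 and 70.25 CPM in all libraries.

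The germ cell markers moved in the same direction as Suv39h2. Of the 20, 19 had a negative log2 fold change for Nrf1 deletion in both Dnmt3C backgrounds and 14 had an unadjusted p under 0.05, with a median of -0.95, larger than the -0.26 of Suv39h2; 4.32% of all features were lower at that p. Ddx4, the germ cell RNA helicase, was at 65.7 and 60.8 CPM in WT and between 17.5 and 39.1 CPM in Nrf1 cKO, and Dazl, a germ cell RNA-binding protein, was at 91.3 and 97.45 CPM and between 21.4 and 44.2 CPM. In dKO, Ddx4 was at 55.4, 52.4 and 27.2 CPM, and the library with the least Ddx4, replicate 3, also had the least Suv39h2 of that group. Of the 10 Sertoli cell markers, 1 had a negative log2 fold change and 3 were higher at an unadjusted p under 0.05 (3.55% of all features), with a median of 0.35. Sox9, which specifies Sertoli cells, was between 44.9 and 193.8 CPM over all libraries and Amh between 228 and 825 CPM. Cyp11a1, the first enzyme of steroid synthesis in Leydig cells, was between 149.5 and 407 CPM. The other marker lists had no marker at an unadjusted p under 0.05 for Nrf1 deletion. Negative log2 fold changes were found for 6 of 6 red blood cell markers (median -0.59), 4 of 5 peritubular markers (median -0.21), 4 of 5 macrophage markers (median -0.14), 3 of 6 Leydig cell markers (median 0.04) and 0 of 5 endothelial markers (median 0.15). The summed red blood cell markers ranged from 261 to 2129 CPM and set the 2 WT libraries apart, at 659.5 and 2129 CPM. The part of germ cell number, or of any other cell type, in the values of Suv39h2 was not tested.

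Of the HP1 genes, Cbx1 was close to constant and the other two varied more between replicates. Cbx1 (HP1 beta; ENSMUSG00000018666.13, chromosome 11, 96789127 to 96808640, plus strand) ranged from 92.5 to 111 CPM and had pooled log2 fold changes of 0.07 for Nrf1 deletion (-0.09 to 0.24) and 0.03 for Dnmt3C loss (-0.14 to 0.20). Cbx3 (HP1 gamma; ENSMUSG00000029836.15, chromosome 6, 51470360 to 51483704, plus strand) ranged from 97.2 to 139 CPM, with WT replicate 2 the highest and Nrf1 cKO replicate 3 the lowest, and its pooled log2 fold changes were -0.11 (-0.36 to 0.14) and 0.05 (-0.20 to 0.30). Cbx5 (HP1 alpha; ENSMUSG00000009575.14, chromosome 15, 103191544 to 103239816, minus strand) was at 269.9 and 291 CPM in WT and at 261, 254 and 246.5 CPM in Dnmt3C KO. These groups did not overlap, but the log2 fold change was -0.14 (-0.47 to 0.18, adjusted p = 0.971). Nrf1 cKO spanned 225 to 297 CPM and dKO 255 to 295 CPM for Cbx5, across the WT values. Groups that did not overlap were found for 2 of 10 genes in Dnmt3C KO against WT (Suv39h2 and Cbx5), 1 in Nrf1 cKO against WT (Suv39h2) and 2 in Dnmt3C KO against Nrf1 cKO (Suv39h2 and Setdb1), where 21.3%, 21.3% and 18.2% of all features did not overlap. Without a correction for GC content, no gene of the 10 separated the groups in dKO against WT, Nrf1 cKO or Dnmt3C KO (13.2%, 7.43% and 13.6% of all features), nor for Nrf1 deletion (0.726%) or Dnmt3C loss (0.212%) over both backgrounds.

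**Figure D3:**
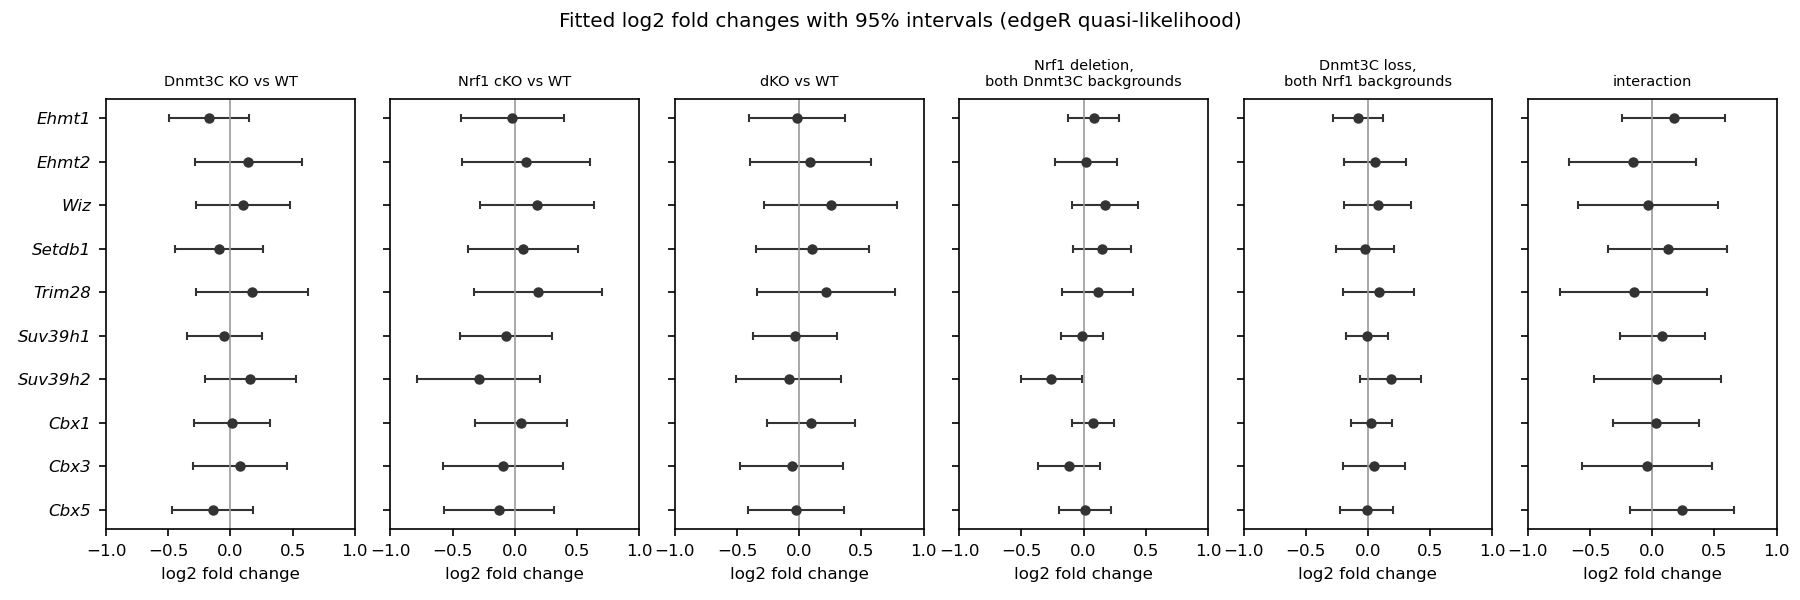
Fitted log2 fold changes (points) and 95% intervals (bars) of the 10 genes in 6 comparisons, by edgeR's quasi-likelihood test; the first genotype named minus the second, and for the interaction the effect of Dnmt3C loss with Nrf1 deleted minus that without. All intervals lie between -0.78 and 0.79, and that of Suv39h2 for Nrf1 deletion, -0.51 to -0.01, is the only one plotted that leaves out 0.

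Dnmt3C loss over both Nrf1 backgrounds gave the closest bounds. All 10 intervals lay within 0.5 on the log2 scale, from -0.28 (Ehmt1) to 0.43 (Suv39h2), and the 10 fitted values had a median of 0.04 beside -0.01 over all features. For Nrf1 deletion 9 of 10 intervals lay within 0.5, all but that of Suv39h2, and the median was 0.05 beside 0.01. In the comparisons with WT, which had 2 libraries, 7 of 10 intervals lay within 0.5 in Dnmt3C KO, 3 in Nrf1 cKO and 5 in dKO. The interaction, which asks whether Dnmt3C loss acted differently once Nrf1 was deleted, left intervals from -0.74 (Trim28) to 0.66 (Cbx5), 2 of 10 of them within 0.5, with no gene at an unadjusted p under 0.05 (5.55% of all features).

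The 2 WT libraries differed in a way that followed base composition. WT replicate 1 over replicate 2 was 1.60 for Ehmt2, 1.55 for Trim28 and 1.47 for Wiz, whose longest transcripts hold 60.8%, 59.6% and 56.8% GC. It was 0.731 for Cbx3 (38.7% GC), 0.904 for Cbx1 (44.9% GC) and 0.926 for Cbx5 (42.6% GC). Setdb1, at 48.3% GC, was at 1.37 and lay above this order. Over 15980 genes with a mean of at least 1 CPM, the median ratio rose from 0.817 in transcripts under 40% GC to 1.24 in those of 60% or more. After a correction for GC content in each library, which was added after the data were seen, the ratio fell to 1.35 for Ehmt2, 1.32 for Trim28 and 1.31 for Wiz, and rose to 0.888 for Cbx3; Setdb1 was at 1.42. The spread within genotypes of Ehmt2 went from 13.2% to 8.50% of its mean, and that of Trim28 from 16.9% to 12.9%, while it rose for Suv39h2 from 10.7% to 12.2%, for Cbx3 from 14.8% to 15.9% and for Setdb1 from 13.2% to 13.5%. The WT ratio of Suv39h2 moved from 1.05 to 1.18. None of the 10 genes was called with this correction either, and Suv39h2 was at -0.23 for Nrf1 deletion (interval -0.48 to 0.02), which takes in 0. Groups that had not overlapped did so after the correction for Suv39h2 in Nrf1 cKO (11.3 to 15.2 CPM) against WT (13.7 and 16.1 CPM), and for Setdb1 in Nrf1 cKO (lowest 102 CPM) against Dnmt3C KO (highest 103 CPM). Others came apart with it: Cbx1 in Nrf1 cKO (99.5 to 105.1 CPM) and in dKO (96.25 to 106.3 CPM) lay above WT (93.2 and 94.4 CPM), Cbx3 in Dnmt3C KO (117.5 to 130.6 CPM) above WT (102.7 and 115.7 CPM), and Ehmt2 in Dnmt3C KO (196.3 to 202.6 CPM) above Nrf1 cKO (174.2 to 193.0 CPM). After the correction 3 of 10 genes did not overlap in Dnmt3C KO against WT, 1 each in Nrf1 cKO and dKO against WT, and 2 in Dnmt3C KO against Nrf1 cKO, where 20.5%, 18.6%, 13.3% and 17.6% of all corrected features did not.

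**Figure D4:**
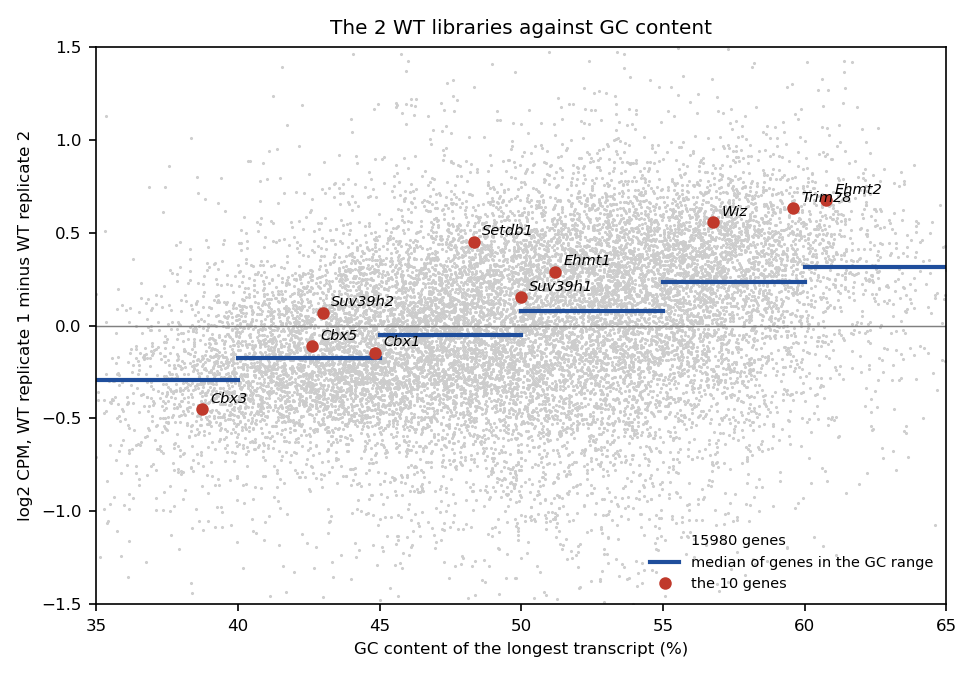
Log2 ratio of CPM in WT replicate 1 to WT replicate 2 against the GC content of the longest transcript (%), for 15980 genes (grey points) and the 10 genes (labelled points); horizontal bars are medians of the genes in ranges of GC content, and genes outside the axes are not drawn. The medians rise from left to right, and of the 10 genes only Cbx3 lies below the median of its range.

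Levels were compared between genes per kilobase of exon (merged exons of GENCODE M21). The order of the genes and the ratios between them depend on this length. For Cbx1, Cbx3 and Cbx5 it was 4273, 5992 and 9006 bases, against 2377, 2926 and 8803 bases in the longest transcript. For Setdb1 and Suv39h1 it was 6853 and 5270 bases, against 5652 and 3116. Levels per base of the longest transcript were not computed, and the order could differ with them. Trim28 was the highest at 78.1 ± 11.8 CPM per kb (SD, n = 11), above 97.4% of the genes tested, and its range lay apart from that of any other member. Ehmt2 followed at 35.4 ± 4.09 and Cbx5 at 29.5 ± 2.51 CPM per kb, whose order was reversed in 2 of 11 libraries. Cbx1 was at 23.5 ± 1.26, Cbx3 at 19.8 ± 2.63, Setdb1 at 15.98 ± 2.00, Suv39h1 at 12.3 ± 0.619 and Ehmt1 at 12.1 ± 1.202 CPM per kb. Cbx1 exceeded Cbx3 in 10 of 11 libraries and Cbx3 exceeded Setdb1 in 9 of 11. The last pair could not be ordered, with Suv39h1 the higher in 7 of 11 libraries. Wiz was at 8.93 ± 1.42 CPM per kb. Suv39h2 was the lowest at 3.42 ± 0.511 CPM per kb, close to the median of the genes tested (3.28), and its range lay below that of every other member.

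**Figure D5:**
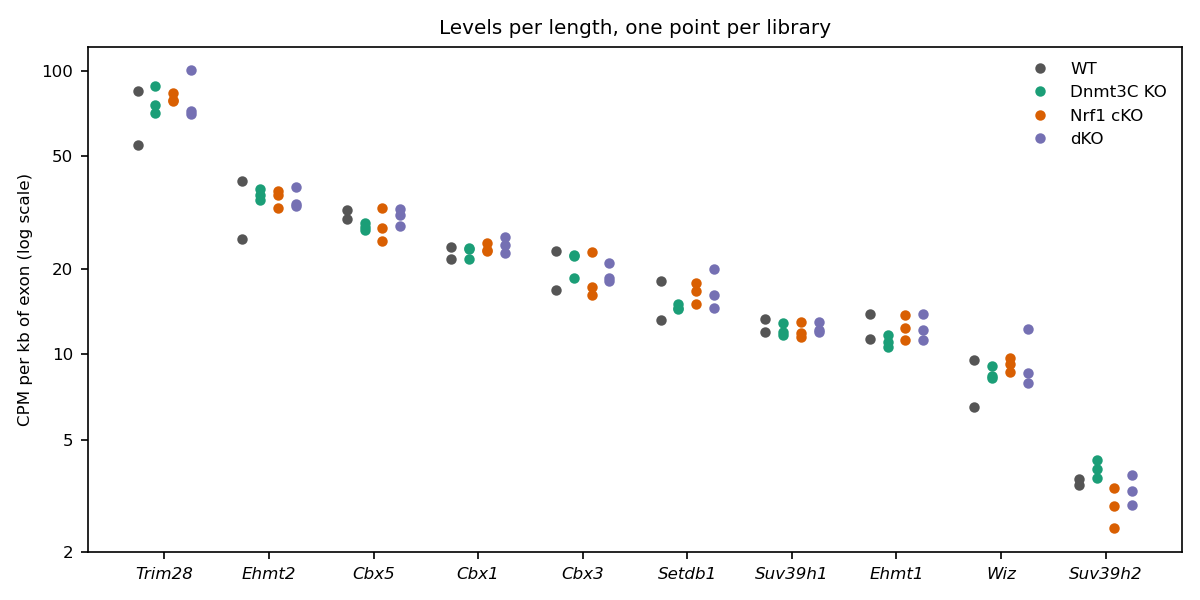
CPM per kilobase of exon for the 10 genes, ordered by mean over 11 libraries, on a log axis; each point is a library, coloured by genotype. Trim28 is the highest and Suv39h2 the lowest in every library, and the colours intermix within each of the other genes.

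Partner genes were also set against each other within each library. Ehmt1 was at 0.28 to 0.44 of Ehmt2 per kb, so that RNA of the GLP subunit was the scarcer in each of the 11 libraries. Suv39h2 was at 0.206 to 0.361 of Suv39h1, with means of 0.280 in WT, 0.324 in Dnmt3C KO, 0.239 in Nrf1 cKO and 0.269 in dKO. Trim28 was at 4.13 to 6.13 times Setdb1. Among the HP1 genes, Cbx5 made up 37.4% to 43.7% of the summed CPM per kb, Cbx1 29.7% to 35.5% and Cbx3 24.1% to 30.7%. These shares hold for merged exons only. That length is close to the longest transcript for Cbx5 but well above it for Cbx1 and Cbx3, so another length could change their order. Reads shared with other loci limit some of these levels. Cbx3 has stretches of 169 bases nearly identical (98% or more) to Cbx3-ps6 and Cbx3-ps7, and Setdb1 has 448 such bases in Gm4349, so their counts are uncertain to that extent. Suv39h2 shares 357 exonic bases with Dclre1c on the opposite strand, and the counting used strand.

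The wider pathway was read from 5 lists with 50 genes measured and tested (49 in dKO against Nrf1 cKO), none of which was called in any comparison by edgeR at an adjusted p under 0.01. Of the other H3K9 methyltransferases and G9a/GLP partners, 1 of 8 had an unadjusted p under 0.05 over the 4 genotypes. It was Setdb2, a SETDB1 relative, at 11.7 and 15.45 CPM in WT and between 8.36 and 10.2 CPM in Nrf1 cKO, with dKO at 12.15, 12.57 and 11.83 CPM (log2 fold change of Nrf1 cKO against WT -0.58, interval -1.10 to -0.06, adjusted p = 0.852). Zfp644, a WIZ-like partner and the most abundant of that list, was between 70.9 and 101.5 CPM in all libraries. Of 9 SETDB1 partners and HUSH complex genes, 2 had such a p over the 4 genotypes, beside 6.06% of all features. Atf7ip, which stabilises SETDB1 and was the most abundant of the list, was at 174 and 131 CPM in WT, between 127 and 131 CPM in Dnmt3C KO and between 139 and 174.5 CPM in Nrf1 cKO. In dKO it was at 137.3, 203.9 and 150.8 CPM. Tasor2, a relative of the HUSH subunit TASOR, had the smallest p, with 106 and 97.8 CPM in WT and 67.2, 59.5 and 82.9 CPM in Nrf1 cKO (log2 fold change -0.55, interval -0.97 to -0.13, adjusted p = 0.833). In dKO, Tasor2 was at 97.4, 88.5 and 88.0 CPM (log2 fold change -0.16 against WT, and 0.39 against Nrf1 cKO, adjusted p = 1.00 for both). None of 11 H3K9 demethylases had an unadjusted p under 0.05 over the 4 genotypes; Jmjd1c, both the most abundant and the one with the smallest p, was between 101 and 144 CPM.

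Hells, the chromatin remodeller LSH that assists DNA methylation, had the smallest p of the 13 heterochromatin and histone deposition factors. It was at 103 and 133 CPM in WT and at 120.0, 98.7 and 109 CPM in Dnmt3C KO, against 69.9, 55.1 and 64.0 CPM in Nrf1 cKO and 107, 106 and 98.1 CPM in dKO. The 3 Nrf1 cKO libraries lay below all 8 others, but Hells was named for its smallest p in these same data. The share of all features that separate in this way was not counted. The summed germ cell markers were also lowest on average in Nrf1 cKO (224 to 357 CPM), overlapping dKO, and their part in the values of Hells was not tested. The log2 fold change was -0.91 in Nrf1 cKO against WT (interval -1.32 to -0.50, adjusted p = 0.581) and 0.80 in Dnmt3C KO against Nrf1 cKO (0.51 to 1.09, adjusted p = 0.068), and the interaction was 0.84 (0.40 to 1.27, adjusted p = 0.895). None of these passed adjustment by edgeR as fitted here. Without the filter on low counts edgeR called Hells in Nrf1 cKO against WT (adjusted p = 0.00356) and in Dnmt3C KO against Nrf1 cKO (adjusted p = 0.00811), and with a replicate block in the first of these (adjusted p = 0.00596). These fits called 138 of 32905, 77 of 33271 and 87 of 21296 features in that order. DESeq2 gave Hells an adjusted p of 7.67e-05 for Dnmt3C KO against Nrf1 cKO and 1.94e-05 over the 4 genotypes, where it called 0.634% and 0.376% of all features. In Nrf1 cKO against WT DESeq2 called 0 of the 50 pathway genes. Morc1, an ATPase needed for retrotransposon silencing in male germ cells, was looked at after its values were seen. It was at 19.6 and 22.9 CPM in WT, 31.2, 18.5 and 24.9 CPM in Dnmt3C KO, 16.3, 3.84 and 4.61 CPM in Nrf1 cKO, and 20.65, 16.4 and 8.74 CPM in dKO. Nrf1 cKO replicate 1 stood apart from the other two of its group, and the log2 fold change against WT was -1.36 (-2.51 to -0.22, adjusted p = 0.837), with -2.34 and an adjusted p of 0.00472 by edgeR without that library. That refit called 25 of 21014 features. DESeq2 with all libraries of both groups gave an unadjusted p of 0.113. The germ cell markers were lower in the same libraries, and their part in the values of Morc1 was not tested. Chd4, a NuRD remodeller and the most abundant of that list, was at 479 and 292.5 CPM in WT and between 340 and 558 CPM in the mutants. Of the 9 DNA methylation enzymes and cofactors, Tet2, a methylcytosine dioxygenase, had the smallest p: 49.05 and 58.0 CPM in WT and between 34.2 and 46.3 CPM in all 9 mutant libraries, with adjusted p values of 0.788 to 1.00 against WT. Dnmt3a, the most abundant, was between 151 and 271 CPM.

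In the interaction 10 of the 50 pathway genes had an unadjusted p under 0.05, all with positive values, where 3.68% of all features did, and the median of the 50 was 0.24 beside -0.03 over all features. That median was 0.08 without dKO replicate 2 and 0.13 without WT replicate 1. With the GC correction 5 did (1.89% of all features). The count fell to 4 without WT replicate 2 (2.71% of all features) or dKO replicate 3 (3.08%). It was 5 without Dnmt3C KO replicate 1 (3.20%), Dnmt3C KO replicate 2 (2.35%) or Nrf1 cKO replicate 2 (2.60%), 6 without dKO replicate 2 (3.24%) and 13 without Nrf1 cKO replicate 3 (4.96%), and no gene passed adjustment. The germ cell markers also had mostly positive interaction values, 17 of 20 with a median of 0.46 and none at an unadjusted p under 0.05, and their part in the values of the pathway genes was not tested. At that p, 8 of 50 pathway genes were lower and 0 higher in Nrf1 cKO against WT (4.22% and 1.53% of all features). In Dnmt3C KO against WT 4 were lower and 0 higher (2.86% and 2.56%). In dKO against Dnmt3C KO 6 were higher and 1 lower (3.10% and 4.08%), and in Dnmt3C KO against Nrf1 cKO 6 and 3 (6.27% and 4.32%). In dKO against Nrf1 cKO 4 of 49 were higher (1.94%), and in dKO against WT 1 was lower (1.19%). For the pooled effect of Nrf1 deletion 6 of 50 were lower and 1 higher (4.32% and 3.55% of all features), with 2 lower without WT replicate 2 (3.07%) or Nrf1 cKO replicate 2 (4.16%) and 7 higher without WT replicate 1 (5.07%), and for that of Dnmt3C loss 1 was higher and none lower (1.90% and 0.996%).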

How the data were processed

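RNA of 11 whole-testis libraries was analysed. Per the study's methods, testes were taken from littermates, in triplicate for each genotype. Which libraries share a litter is not given in the sources used here. The authors aligned reads with STAR 2.7.3a to GRCm38 (GENCODE M25), assigned them with TEtranscripts (multi-mapping, stranded mode) and deposited raw counts for pairs of genotypes; 1 sample per genotype was left out by the authors for low RNA quality. A library held in several tables had equal counts in each, and the tables were joined to 33188 genes and 1088 TE subfamilies. The fold changes and p-values in the tables are the authors' own and were not used, nor was a TPM table of TE copies.

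From the counts, edgeR 4.0.16 (R 4.3.3; filterByExpr, TMM, quasi-likelihood F test, Benjamini-Hochberg over all features, adjusted p under 0.01) compared each pair of genotypes on their own libraries, and the pooled effects, the interaction and the 4 genotypes on all 11. Standard errors are the log2 fold change over the root of F, and intervals are 95% intervals. Each test was tested on simulated data. Alternatives were DESeq2's size factors, total counts, genes only, no filter, an adjusted p under 0.05, DESeq2 1.42.0, a replicate block, 1 fit of all libraries, each library left out and, added after the data were seen, a GC correction (lowess, span 0.3). Replicates differed by more than sampling noise (chi-square per degree of freedom 18.1 to 64.6, highest in WT). Intervals rest on the spread between libraries, so they cover no error from amplification that all libraries share.

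The 10 genes, pathway lists and marker lists were chosen with earlier results of these data known. Named pathway genes are those called in any comparison as reported (there were none) and, per list, the most abundant and the one with the smallest unadjusted p over the 4 genotypes; Morc1 was added after its values were seen, and named markers are Ddx4, Dazl, Sox9, Amh and Cyp11a1. Gene coordinates and lengths are from GENCODE M21, promoters from RefSeq. Transcript near-copies were found with blastn 2.17.0.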

Additional observations from a re-analysis of the deposited data

How the results depend on the processing

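The count of the 10 genes called was 0 in every comparison and under every alternative run, and the lowest adjusted p of any of them was 0.226, in a refit without 1 library. With the GC correction it was 0.402. Where leaving out a WT library left 1, that library was assumed to vary like the other group. The alternatives gave 1350 log2 fold changes of these genes beside the 90 reported, between -0.55 and 0.57, of which 133 had the other sign, 103 of them in refits without 1 library; those that changed sign were at most 0.217 in size as reported, and none of them had an unadjusted p under 0.05 as reported. For Suv39h2 the effect of Nrf1 deletion was between -0.31 and -0.21 without 1 library, and its difference between Dnmt3C KO and Nrf1 cKO was between 0.33 (without Nrf1 cKO replicate 2) and 0.57 (without Nrf1 cKO replicate 1).

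Same-numbered replicates of different genotypes correlated between -0.233 and 0.221 in their deviations from the group means, above 0.1 in 3 of 15 pairs. The highest, 0.221, was between Dnmt3C KO replicate 1 and dKO replicate 1, and was the highest value of either library. Libraries with other numbers reached 0.299 (Nrf1 cKO replicate 1 with dKO replicate 2), so the numbers were not taken to pair samples. These are the numbers of the sample titles. The descriptions number 2 libraries otherwise, which leaves 12 pairs, from -0.233 to 0.221 and above 0.1 in 3. The block was fitted with the title numbers only. With the replicate number as a block, 0 of the 10 genes were called in each comparison, and features called went from 0 to 131 in Dnmt3C KO against WT, 87 in Nrf1 cKO against WT, 21 in dKO against WT and 3 in Dnmt3C KO against Nrf1 cKO. In Nrf1 cKO against WT, Hells was called without the filter on low counts (adjusted p = 0.00356) and with the block (adjusted p = 0.00596), and in Dnmt3C KO against Nrf1 cKO without the filter (adjusted p = 0.00811). Without the filter edgeR called 138 of 32905 features in the first comparison and 77 of 33271 in the second. Morc1 was called in Nrf1 cKO against WT without the filter (adjusted p = 0.000486), with the block (adjusted p = 0.0016) and without Nrf1 cKO replicate 1 (adjusted p = 0.00472), and in Dnmt3C KO against Nrf1 cKO without that library (adjusted p = 0.00827). Without that library edgeR called 25 and 16 features in these comparisons. In Nrf1 cKO against WT edgeR did not call Morc1 with the GC correction (adjusted p = 0.99972), with genes only (0.998) or in 1 fit of all libraries (0.479). DESeq2 did not call Morc1 there either (unadjusted p = 0.113). No other pathway gene was called by edgeR under any alternative. The cause was not tested. With 2 WT libraries, the interval of Trim28 against WT reached 0.79-fold and 1.71-fold in dKO, which limits what could be seen there.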
